A study of Mus musculus with 15 samples.

Results

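The 34 genes described here carry the signal of the B cell antigen receptor from the membrane to the nucleus: the receptor's signalling chains, kinases, adaptors, second messenger enzymes and transcription factors. They were listed by gene symbol, with inhibitory coreceptors left out, and 33 were measured among the 19938 genes of the arrays, each by 1 probe set. Mapk3 was not matched to a probe set that names it alone and is not analysed here. Whole-transcript microarrays were run on 15 samples of germinal centre B cells, sorted from the spleens of female mice on day 10 of the response. In all of them the B cells were SwHEL cells, which carry a knocked-in receptor for hen egg lysozyme and the CD45.1 allele, moved into C57BL/6J recipients with the CD45.2 allele. The recipients received sheep red blood cells coupled to the lysozyme mutant HEL3x. Cells were taken as CD45.1+, CD45.2-, IgG1+ and CD38 low, so every group is a class-switched population with 1 starting receptor, and the results hold for that model. The light zone was sorted as CD86 high and CXCR4 low, the dark zone as the reverse, and both zones were divided further by affinity, high or low. How affinity was gated, and whether each sample came from separate mice, is not given in the sources used here, so p-values measure only the spread between these samples. The groups are named by zone and affinity, after the titles Dzhi, Dzlo, Lzhi and Lzlo of the labels: DZ_high and DZ_low for the dark zone, with 4 arrays each, LZ_high with 3 (replicates 1, 2 and 4) and LZ_low with 4.

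When antigen joins B cell receptors, Src family kinases and Syk phosphorylate the cytoplasmic tails of the chains encoded by Cd79a and Cd79b. Adaptors such as BLNK then gather Btk and phospholipase C-gamma2, which releases calcium and diacylglycerol and so drives NFAT and protein kinase C-beta, while phosphoinositide 3-kinase recruits Akt. In the germinal centre, B cells divide and mutate their receptors in the dark zone and test them on antigen in the light zone, and receptor signalling there is known to be damped compared with naive B cells.

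The values are log2 values normalized by RMA, so a difference of 1 is a doubling. Each difference below is given with its standard error from a limma fit of all 15 arrays, and a gene passed where its p, adjusted over all 19938 genes by the Benjamini-Hochberg method, was under 0.05. Array medians lay between 5.57 and 5.74, and the number of arrays limits the precision. The labelled cell type was borne out by its markers: the mean of 7 B cell markers, of which Blk, Cd79a and Cd79b are also among the genes described here, lay between 10.01 and 10.56, and that of 7 germinal centre markers between 9.63 and 10.27. LZ_low replicate 3 stood apart. Its mean over 13 neutrophil markers was 9.08 (4.95 to 7.58 in the other arrays), over 12 T cell markers 6.47 (4.88 to 5.68) and over 13 macrophage and monocyte markers 6.15 (4.88 to 5.63), and its germinal centre mean was the lowest. DZ_low replicate 3, which has the same code in its description, had the next highest neutrophil and macrophage means, 7.58 and 5.63. Those codes take 5 forms. They were read here as shared experiments, which the labels do not state, and merged into experiments A to D. Code B has 1 spelling in each zone, and both were merged, and LZ_high has no array with code D.

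The stretches of 250 bases before the start site are shown for 3 of the genes: Cd79a, because it differed most clearly by experiment code, and Pik3ap1 and Prkcb, because they passed between zones once the code entered the model. They come from RefSeq on GRCm38.p6, run 5′ to 3′ on the gene's strand, and lie at chr7:24897247-24897496 (plus strand), chr19:41385103-41385352 (minus strand) and chr7:122288875-122289124 (plus strand). Capitals mark matches to any of 6 motifs searched on both strands.
Cd79a: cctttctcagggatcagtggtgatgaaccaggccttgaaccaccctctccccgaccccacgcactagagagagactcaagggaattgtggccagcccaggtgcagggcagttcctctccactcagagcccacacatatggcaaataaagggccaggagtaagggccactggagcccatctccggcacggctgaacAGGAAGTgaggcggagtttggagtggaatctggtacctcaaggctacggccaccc
Pik3ap1: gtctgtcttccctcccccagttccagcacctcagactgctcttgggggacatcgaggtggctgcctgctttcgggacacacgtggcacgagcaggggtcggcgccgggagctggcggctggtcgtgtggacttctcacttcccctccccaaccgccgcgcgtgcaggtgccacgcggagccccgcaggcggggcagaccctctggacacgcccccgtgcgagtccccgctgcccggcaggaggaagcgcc
Prkcb: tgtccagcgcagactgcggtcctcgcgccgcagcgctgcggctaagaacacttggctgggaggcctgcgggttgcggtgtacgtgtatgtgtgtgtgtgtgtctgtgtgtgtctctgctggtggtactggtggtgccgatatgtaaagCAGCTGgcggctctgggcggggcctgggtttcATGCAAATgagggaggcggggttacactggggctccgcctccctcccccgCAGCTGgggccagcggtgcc

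The motifs were the octamer ATGCAAAT bound by OCT factors, the ETS motif AGGAAGT, the E-box CAGCTG, the EGR1 motif GCGGGGGCG, and a motif each for EBF1 and NF-kappaB. Cd79a holds an ETS match that begins 55 bases before the start, and Prkcb an octamer 70 bases before it and E-boxes at 102 and 20. Pik3ap1 holds none of these letters in this window. Of the 33 genes, 27 had an entry, with 37 windows in all. The octamer was in 3 of these windows (Blnk, Orai1 and Prkcb), against 1.6% of all 32851 windows, the ETS motif in 10 (7.69%), the E-box in 6 (13%) and the EGR1 motif in 2, of Pik3r1 and Stim1 (2.57%). The EBF1 motif (0.779%) and the NF-kappaB motif (0.14%) were in none. No matches overlapped in the windows printed, and a match describes letters only.

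All 33 genes were measured above the median gene of the arrays, and 17 lay in the top 10%. Mean levels ran from 6.42 for Orai1, at percentile 62.6 of all genes, to 12.07 for Cd79b, at percentile 99.5. The levels of different probe sets are not compared further, since the values are not per length. Within groups the genes spread more than most: the median standard deviation (SD) within groups was 0.37, against 0.24 over all genes, from 0.17 for Prkcd to 1.00 for Sos1. Sos1, an exchange factor for Ras, ranged from 5.16 in LZ_high replicate 4 to 7.80 in LZ_high replicate 1, which are arrays of the same group.

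**Figure D1:**
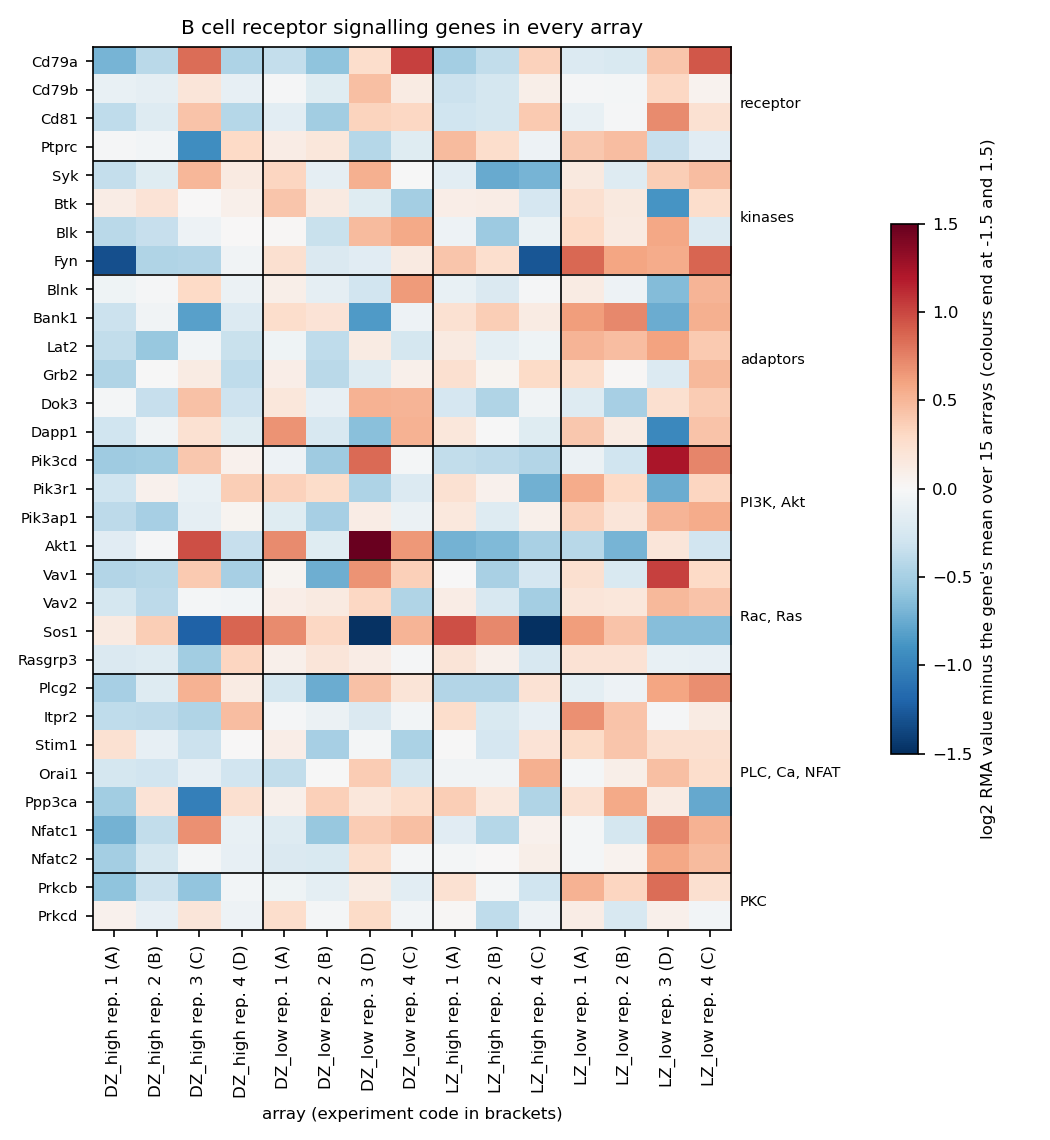
Each row is 1 of 31 of the 33 genes, ordered by role, and each column an array with its experiment code; the colour is the log2 RMA value minus the gene's mean over the 15 arrays and is capped at both ends of the scale. The widest row is Sos1, whose values span 2.63, and the narrowest is Prkcd, whose values span 0.67.

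The first comparison asked how the signalling genes differed between light and dark zone cells over both affinities. None of the 33 passed in limma, where 0.155% of all genes did. At an unadjusted p under 0.05, 9 were higher in the light zone (2.47% of all genes were) and 1 was lower (1.91%). The 9 became 4 without LZ_high replicate 4, and 5 without any 1 of DZ_high replicate 1, DZ_low replicate 2, LZ_high replicate 1 and LZ_low replicate 4. In a fit of only the genes above the median gene, 8 were higher (3.53% of those genes) and 1 was lower (2.45%). The adaptor genes Lat2 and Bank1, the phosphoinositide 3-kinase adaptor gene Pik3ap1, the kinase genes Prkcb and Fyn, and Grb2, Orai1, Stim1 and Nfatc2 lay on the light zone side, and Akt1 on the dark zone side. The median difference of the 33 was 0.07 against -0.01 for all genes, with 20 above 0 (48% of all genes were), and the median was -0.01 without DZ_high replicate 1 and 0.00 without DZ_low replicate 2, with 16 above 0 in each case. In these sorted pools, less RNA of a gene per cell cannot be told apart from fewer cells that carry it. Between zones 4 of 5 naive and marginal zone B cell markers were higher in the light zone (median 0.19) and 6 of 7 plasma cell markers lower (median -0.24), and their part in the result was not tested.

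With the experiment code as a block in the model, which compares arrays within an experiment and rests on the merge of the forms of code B, 3 of the 33 passed, all of them higher in the light zone, against 0.451% of all genes. These were Pik3ap1 (0.45 ± 0.07, adjusted p = 0.0208), Prkcb (0.50 ± 0.09, adjusted p = 0.0284) and Lat2 (0.49 ± 0.09, adjusted p = 0.0447). With code B as written in each zone, or with each array centred on its median in the same model, none passed. In the first of these fits each form of code B holds 1 zone only. Its arrays then cannot compare the zones, so that fit has fewer arrays for the comparison. The blocked calls also rest on single arrays. Leaving out each array in turn, Pik3ap1 passed in 6 of 15 fits with adjusted p from 0.0163 to 0.0925, Prkcb in 5 with 0.0258 to 0.112, and Lat2 in 3 with 0.0114 to 0.167.

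Among the receptor and coreceptor genes the differences ran from -0.07 for Cd79b to 0.28 for Ptprc, and none had an unadjusted p under 0.05. Ptprc encodes the phosphatase CD45, which releases Src family kinases from inhibition and whose CD45.1 allele marked the donor cells in every group. Listed in replicate order, as for all genes below, Ptprc measured 11.36, 11.33, 10.45 and 11.67 in DZ_high, 11.49, 11.55, 10.95 and 11.20 in DZ_low, 11.85, 11.64 and 11.30 in LZ_high, and 11.78, 11.84, 11.03 and 11.21 in LZ_low. The zones overlapped widely, and its difference was 0.28 ± 0.19. The tetraspanin gene Cd81 differed by 0.15 ± 0.19, and Cd79a by 0.08 ± 0.30.

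Of the tyrosine kinase genes, Syk (-0.27 ± 0.16), Btk (-0.07 ± 0.18) and Blk (-0.01 ± 0.16) lay below 0. Fyn, a Src family kinase, measured 7.63, 8.50, 8.51 and 8.90 in DZ_high, 9.19, 8.74, 8.78 and 9.09 in DZ_low, 9.37, 9.20 and 7.67 in LZ_high, and 9.81, 9.54, 9.51 and 9.83 in LZ_low. LZ_high replicate 4 lay with the lowest dark zone array, while the other light zone arrays lay above every dark zone array. The zone difference of Fyn was 0.54 ± 0.24 (adjusted p = 1), and it was 0.81 without LZ_high replicate 4.

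The 6 adaptor genes were divided, 3 on each side of 0. Lat2 encodes the membrane adaptor NTAL, which docks Grb2 after receptor engagement. It measured 8.99, 8.79, 9.32 and 9.03 in DZ_high, 9.30, 8.98, 9.48 and 9.10 in DZ_low, 9.50, 9.22 and 9.30 in LZ_high, and 9.87, 9.83, 9.96 and 9.75 in LZ_low. The LZ_low arrays lay above every other array, whereas LZ_high overlapped the dark zone. The zone difference of Lat2 was 0.47 ± 0.10, a 1.39-fold difference (adjusted p = 0.109), and it was above 0 in 2 of 3 pairs of arrays from the same experiment at high affinity and in 4 of 4 at low affinity.

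Bank1, a scaffold that joins Lyn to the inositol trisphosphate receptor, measured 10.32, 10.59, 9.83 and 10.43 in DZ_high, 10.90, 10.84, 9.79 and 10.56 in DZ_low, 10.87, 11.01 and 10.76 in LZ_high, and 11.27, 11.36, 9.90 and 11.17 in LZ_low. LZ_low replicate 3 and DZ_low replicate 3, the arrays with the highest neutrophil means, were low in their groups. Its difference was 0.50 ± 0.23 (adjusted p = 1). Grb2, which links receptors to Sos1, measured 8.19, 8.64, 8.76 and 8.26 in DZ_high, 8.74, 8.24, 8.45 and 8.72 in DZ_low, 8.88, 8.68 and 8.93 in LZ_high, and 8.90, 8.66, 8.43 and 9.13 in LZ_low. Most light zone values of Grb2 lay in the upper part of the dark zone range or above it, with a difference of 0.31 ± 0.13. Dok3, an adaptor that restrains calcium signalling, lay on the other side at -0.24 ± 0.16 and was below 0 in 7 of 7 pairs. Blnk, the central scaffold, was at -0.12 ± 0.17 and the adaptor gene Dapp1 at -0.01 ± 0.24.

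In the phosphoinositide 3-kinase and Akt group, Pik3ap1 encodes BCAP, which recruits that kinase after receptor engagement. Pik3ap1 measured 10.28, 10.17, 10.54 and 10.72 in DZ_high, 10.49, 10.17, 10.79 and 10.59 in DZ_low, 10.83, 10.48 and 10.75 in LZ_high, and 11.02, 10.86, 11.18 and 11.23 in LZ_low. All LZ_low arrays lay above all others, and LZ_high overlapped the dark zone. Without the block its difference was 0.41 ± 0.12, a 1.33-fold difference (adjusted p = 0.364), and it was above 0 in 7 of 7 pairs.

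Akt1, the kinase activated by the lipid product of that enzyme, had the opposite direction. It measured 8.34, 8.49, 9.48 and 8.16 in DZ_high, 9.22, 8.33, 9.99 and 9.16 in DZ_low, 7.80, 7.85 and 8.03 in LZ_high, and 8.09, 7.81, 8.69 and 8.22 in LZ_low. The LZ_high arrays lay below every dark zone array, while LZ_low replicates 3 and 4 reached into the lower dark zone values. The difference was -0.85 ± 0.24 (adjusted p = 0.381), below 0 in 7 of 7 pairs, and it stayed between -0.99 and -0.70 when any 1 array was left out. In the blocked model it was -0.80 ± 0.22 (adjusted p = 0.219). The catalytic and regulatory subunit genes Pik3cd and Pik3r1 differed by 0.04 ± 0.25 and -0.01 ± 0.22.

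The genes of exchange factors for Rac and Ras showed the smallest range of differences, from -0.05 for Sos1 to 0.13 for Vav2, and none had an unadjusted p under 0.05. All 7 genes of the phospholipase, calcium and NFAT group lay above 0, with a median of 0.28, and 3 of them had an unadjusted p under 0.05. Orai1, the pore of the store-operated calcium channel, measured 6.16, 6.14, 6.30 and 6.14 in DZ_high, 6.05, 6.42, 6.81 and 6.16 in DZ_low, 6.37, 6.37 and 6.96 in LZ_high, and 6.40, 6.51, 6.88 and 6.69 in LZ_low. Apart from DZ_low replicates 2 and 3, its dark zone arrays lay below its light zone arrays, and the difference was 0.32 ± 0.13 (adjusted p = 0.936).

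Stim1, the calcium sensor of the endoplasmic reticulum that opens Orai1, measured 7.87, 7.52, 7.32 and 7.65 in DZ_high, 7.75, 7.15, 7.62 and 7.17 in DZ_low, 7.64, 7.39 and 7.85 in LZ_high, and 7.93, 8.06, 7.89 and 7.89 in LZ_low. Only its LZ_low arrays lay above all dark zone arrays, and the difference was 0.28 ± 0.12. Nfatc2, a transcription factor that calcineurin sends to the nucleus, measured 6.23, 6.48, 6.71 and 6.62 in DZ_high, 6.52, 6.51, 7.0 and 6.71 in DZ_low, 6.71, 6.75 and 6.83 in LZ_high, and 6.71, 6.79, 7.32 and 7.22 in LZ_low. No light zone value of Nfatc2 was under 6.71, which in the dark zone was reached by DZ_high replicate 3 and DZ_low replicates 3 and 4. Its difference was 0.29 ± 0.12 and above 0 in 7 of 7 pairs. Itpr2, a calcium release channel, differed by 0.28 ± 0.15, and the phospholipase gene Plcg2, the calcineurin gene Ppp3ca and Nfatc1 by 0.07 ± 0.22, 0.06 ± 0.23 and 0.08 ± 0.23.

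Prkcb encodes protein kinase C-beta, which diacylglycerol activates. Prkcb measured 9.08, 9.36, 9.09 and 9.64 in DZ_high, 9.62, 9.54, 9.81 and 9.52 in DZ_low, 9.91, 9.65 and 9.38 in LZ_high, and 10.20, 10.01, 10.52 and 9.93 in LZ_low. All LZ_low arrays were above all others, and LZ_high replicate 4 was below every DZ_low array. Without the block the difference was 0.45 ± 0.12, a 1.37-fold difference (adjusted p = 0.315), and it was above 0 in 7 of 7 pairs. Prkcd, which encodes protein kinase C-delta, differed by -0.15 ± 0.09. Over the 33 genes, Ptprc, Bank1, Pik3ap1, Itpr2, Orai1, Nfatc2 and Prkcb were above 0 in all 7 pairs (2.06% of all genes were), and Dok3 and Akt1 were below 0 in all of them (1.81%). In the plot of zone differences, the blocked and unblocked values of each gene lie close together and the blocked bars are mostly shorter.

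**Figure D2:**
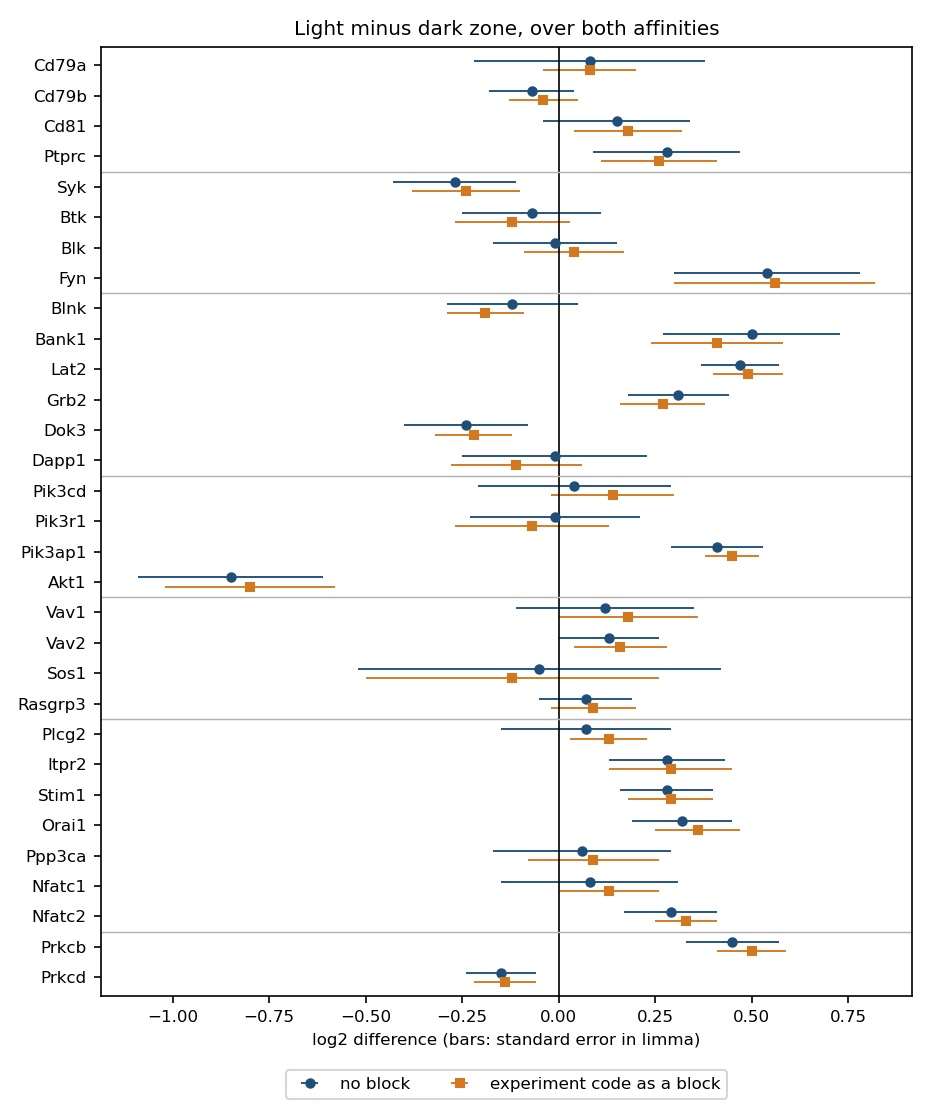
Light minus dark zone log2 difference of 31 of the 33 genes over both affinities, with its limma standard error, without a block (circles) and with the experiment code as a block (squares), by role. Fyn has the highest value without the block (0.54) and Akt1 the lowest (-0.85); Pik3ap1, Prkcb and Lat2 pass in the blocked model.

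The zone comparison was then made within each affinity. Among low-affinity cells none of the 33 passed in limma (0.01% of all genes did), 5 were higher in the light zone at an unadjusted p under 0.05 (2.04%) and 1 was lower (1.48%). With only the genes above the median gene fitted, 5 were higher (2.61% of those genes) and 1 was lower (1.75%). Fyn, Lat2, Pik3ap1, Stim1 and Prkcb did not overlap between LZ_low and DZ_low, all of them higher in LZ_low, where 0.988% of all genes were. Lat2 differed by 0.64 ± 0.13 (adjusted p = 0.235), Pik3ap1 by 0.56 ± 0.16 (0.569), Prkcb by 0.54 ± 0.17 (0.783), Stim1 by 0.52 ± 0.16 (0.795), Fyn by 0.73 ± 0.33 and Akt1 by -0.98 ± 0.33 (0.967). In the other roles, the receptor gene with the lowest p was Cd81 (0.21 ± 0.26) and the exchange factor gene was Vav2 (0.30 ± 0.18). The median of the 33 was 0.17, with 22 above 0 (48.6% of all genes were), and it was 0.04 without DZ_low replicate 2. Markers of other cells moved with this comparison: 12 of 13 neutrophil markers (median 0.64), 7 of 12 T cell markers (0.26), 10 of 13 macrophage and monocyte markers (0.16) and 5 of 5 naive and marginal zone B cell markers (0.36) were higher in LZ_low, the last with 2 at an unadjusted p under 0.05. Their part in the result was not tested.

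Among high-affinity cells none of the 33 passed either (0.015% of all genes did), and the median difference was 0.01, with 17 above 0 (48.8% of all genes were). Syk, the kinase that binds the phosphorylated receptor tails, was the gene with an unadjusted p under 0.05, on the dark zone side (1.32% of all genes were), and no gene of the 33 was so on the light zone side (1.48%). With the experiment code as a block 5 were, against 2.32% of all genes: Lat2 (0.35 ± 0.14), Pik3ap1 (0.33 ± 0.11), Orai1 (0.46 ± 0.17), Nfatc2 (0.33 ± 0.12) and Prkcb (0.46 ± 0.13), each with an adjusted p of 0.609 or higher in limma. Leaving out DZ_high replicate 4 raised that count to 9, and leaving out LZ_high replicate 1 or replicate 2 lowered it to 2 or 3. Syk measured 9.12, 9.30, 9.98 and 9.62 in DZ_high, 9.80, 9.35, 10.02 and 9.48 in DZ_low, 9.32, 8.73 and 8.78 in LZ_high, and 9.63, 9.29, 9.85 and 9.95 in LZ_low. LZ_high replicates 2 and 4 were lower than all other arrays, and LZ_high replicate 1 lay among the low dark zone values. The difference of Syk was -0.56 ± 0.24 (adjusted p = 0.999). Bank1 (0.59 ± 0.34) and Orai1 (0.39 ± 0.19) did not overlap between LZ_high and DZ_high on the higher side (1.84% of all genes), nor did Akt1 (-0.72 ± 0.36) on the lower side (1.85%). In the remaining roles the lowest p belonged to Ptprc (0.39 ± 0.28), Lat2 (0.31 ± 0.14), Rasgrp3, an exchange factor gated by diacylglycerol (0.16 ± 0.18), and Prkcb (0.36 ± 0.18). The median over the 33 was 0.42 between the arrays of experiment A, 0.00 in B and -0.26 in C. The experiments thus differed in sign here, while at low affinity the median was 0.16, 0.28, 0.16 and 0.11 in A to D. Over all genes the high-affinity medians were -0.06 in A, -0.01 in B and 0.08 in C, so all genes moved the other way in A and C. At low affinity they were -0.01, 0.00, 0.00 and 0.00 in A to D. All 13 neutrophil markers (median -0.24) and 6 of 7 plasma cell markers (-0.34) were lower in LZ_high than in DZ_high, and their part in these values was not tested.

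The next comparison asked how high- and low-affinity light zone cells differed. Here 28 of the 33 genes lay below 0, that is, lower in high-affinity cells, where 50.1% of all genes did, and the median was -0.26, against 0.00 for all genes. None passed in limma, and no gene of the 19938 did (0%). At an unadjusted p under 0.05, 6 were lower in high-affinity cells (2.36% of all genes) and 0 higher (1.64%): Lat2, Syk, Prkcb, Vav2, Fyn and Pik3ap1, each with an adjusted p of 1. When only the genes above the median gene were fitted, 5 were lower at that unadjusted p (3.38% of those genes) and 0 higher (2.16%). The 28 genes below 0 came from every role, including all 4 of phosphoinositide 3-kinase and Akt and all 7 of phospholipase, calcium and NFAT. This comparison shares the LZ_low arrays with the zone comparison at low affinity, so the genes high in LZ_low enter both.

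Lat2 differed by -0.51 ± 0.14, Prkcb by -0.52 ± 0.18 and Pik3ap1 by -0.39 ± 0.17, and the array values given above show that none of them overlapped between LZ_high and LZ_low. Syk differed by -0.74 ± 0.24, with LZ_high replicate 1 inside the LZ_low range. For Fyn the difference was -0.93 ± 0.36, and it was -0.39 without LZ_high replicate 4. Vav2, an exchange factor for Rac, measured 7.27, 7.14, 7.51 and 7.50 in DZ_high, 7.64, 7.67, 7.85 and 7.08 in DZ_low, 7.65, 7.29 and 7.02 in LZ_high, and 7.72, 7.71, 8.02 and 7.96 in LZ_low. Its LZ_high arrays lay below its LZ_low arrays, replicate 1 only narrowly, and the difference was -0.54 ± 0.19. In all, Fyn, Lat2, Pik3cd, Pik3ap1, Vav2, Stim1 and Prkcb did not overlap, lower in LZ_high, where 2.29% of all genes were. None of the 33 lay apart in the other direction, where 2.26% of all genes did.

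Pik3cd, the catalytic subunit of the kinase used by B cells, measured 8.07, 8.04 and 7.99 in LZ_high and 8.34, 8.14, 9.66 and 9.17 in LZ_low. LZ_low replicates 3 and 4 were far above LZ_low replicates 1 and 2, and the difference was -0.79 ± 0.37. The same replicates 3 and 4 had the highest T cell marker means of all arrays, 6.47 and 5.68. LZ_low replicate 3 was also the highest of all arrays for Lat2, Vav2 and Prkcb, as for Pik3cd. Of the other genes without overlap, Fyn and Pik3ap1 were highest in LZ_low replicate 4 and Stim1 in LZ_low replicate 2. The part of other cells in these values was not tested. Stim1 differed by -0.31 ± 0.17. Cd79b, the signalling chain with the lowest p among the receptor genes, measured 11.75, 11.80 and 12.16 in LZ_high and 12.05, 12.04, 12.38 and 12.12 in LZ_low, with overlap and a difference of -0.24 ± 0.16. Among the genes on the other side of 0 were Ptprc (0.13 ± 0.28), Sos1 (0.06 ± 0.69), Grb2 (0.05 ± 0.19) and Btk (0.04 ± 0.26).

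Between arrays of the same experiment, 20 of the 33 genes were lower in high-affinity light zone cells in 3 of 3 pairs, where 12% of all genes were, and 0 were higher in all of them (15.7%). The median over the 33 was -0.24 in experiment A, -0.23 in B and -0.45 in C. Over all genes the medians of these pairs were -0.00, -0.01 and 0.10. In C, 61.6% of all genes lay above 0, the side opposite to the median of the 33. Each pair shares its arrays over all genes, so these shares describe arrays and are not independent per gene. With each array centred on its median 26 lay below 0, and with the experiment code as a block 29 did, with a median of -0.22. When each array was left out in turn, the median lay between -0.34 and -0.24 without the block and between -0.31 and -0.14 with it. Without LZ_high replicate 4 it was -0.34 and -0.14 in these fits, and the number above 0 without the block was 11 in place of 5.

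Markers of other cells moved with this comparison. All 13 neutrophil markers were lower in LZ_high than in LZ_low, with a median of -1.18, and so were 9 of 12 T cell markers, with a median of -0.55. Without LZ_low replicate 3, the array in which those markers were highest, 31 of the 33 signalling genes lay below 0 and their median was -0.31. The remaining LZ_low arrays had T cell means of 4.89, 5.10 and 5.68, against 4.88, 4.94 and 5.12 in LZ_high. Their neutrophil means were 5.08, 6.02 and 6.31, against 4.95, 6.33 and 5.32. The part of the neutrophil and T cell markers in the result was not tested. All 5 measured markers of naive and marginal zone B cells, cells that a CD38 low gate should leave out, were lower in LZ_high, with a median of -0.52. Their mean lay between 7.69 and 7.79 in LZ_high and between 8.02 and 8.50 in LZ_low, without overlap, and between 7.25 and 7.69 in the dark zone arrays, and its part in the result was not tested. Of the other lists, 9 of 13 macrophage and monocyte markers (median -0.13), 6 of 8 NK cell markers (-0.12), 4 of 4 erythroid markers (-0.09) and 5 of 7 B cell markers (-0.24) lay below 0, and 4 of 7 germinal centre markers (0.12) and 7 of 7 plasma cell markers (0.11) above it. The B cell list shares Blk, Cd79a and Cd79b with the 33 genes.

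**Figure D3:**
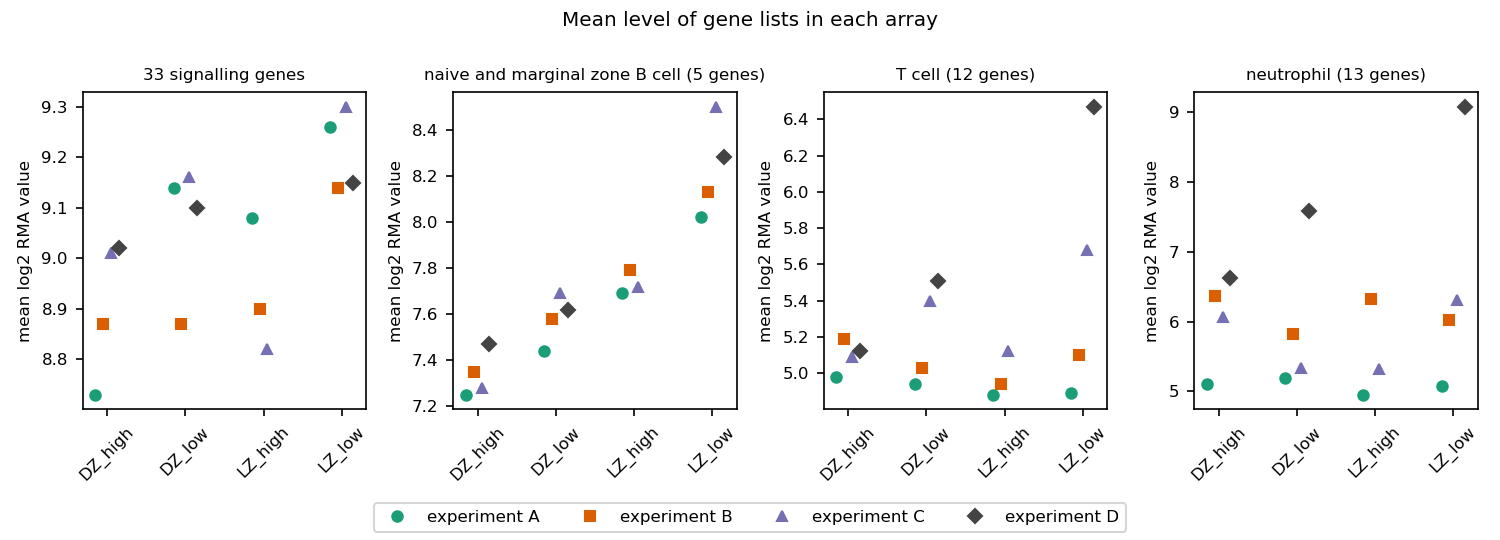
Mean log2 RMA value of the 33 signalling genes and of 3 marker lists in each array, by group, with the experiment code as colour and shape. The naive and marginal zone B cell markers are higher in every LZ_low array (8.02 to 8.50) than in the LZ_high arrays (7.69 to 7.79), and LZ_low replicate 3 is the highest array for T cell (6.47) and neutrophil (9.08) markers.

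Among dark zone cells none of the 33 passed between high and low affinity in limma (0% of all genes did), and none had an unadjusted p under 0.05 on either side (0.757% of all genes higher, 0.848% lower). With the experiment code as a block 4 had one on the lower side, against 1.47% of all genes: Blk (-0.38 ± 0.17), Dok3 (-0.33 ± 0.14), Ppp3ca (-0.49 ± 0.22) and Prkcb (-0.33 ± 0.11), each with an adjusted p of 1 in limma. That count lay between 2 and 6 when each array was left out in turn. The median was -0.16, with 26 of 33 below 0 against 49.6% of all genes. By experiment the medians were -0.36 in A, -0.01 in B, 0.01 in C and -0.19 in D, and without DZ_high replicate 1 the pooled median was -0.09. Over all genes the medians by experiment were 0.02, 0.00, 0.00 and -0.07 in A to D, with 58% of all genes below 0 in D. In each role the gene with the lowest p was Cd79b (-0.14 ± 0.15), Blk (-0.38 ± 0.21), Dok3 (-0.33 ± 0.22), Akt1 (-0.56 ± 0.33), Rasgrp3 (-0.23 ± 0.16), Ppp3ca (-0.49 ± 0.31) and Prkcb (-0.33 ± 0.17). Blk, Dok3, Pik3ap1 and Prkcb were lower in DZ_high in 4 of 4 pairs (3.25% of all genes), and Stim1 was higher (3.94%). Some of these pairs barely differed: Pik3ap1 by -0.00 in B, -0.05 in C and -0.07 in D, Blk by -0.01 in B and Stim1 by 0.03 in D. All 7 plasma cell markers were higher in DZ_high, with a median of 0.26, and all 7 B cell markers were lower, with a median of -0.17. Of these B cell markers, Blk, Cd79a and Cd79b are themselves among the 33 genes. The part of both lists in these values was not tested.

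Blk, a Src family kinase of B cells, measured 8.12, 8.18, 8.45 and 8.53 in DZ_high, 8.54, 8.19, 8.99 and 9.09 in DZ_low, 8.45, 7.97 and 8.42 in LZ_high, and 8.82, 8.65, 9.10 and 8.31 in LZ_low. Its low-affinity arrays reached the higher values in both zones, with DZ_low replicate 2 and LZ_low replicate 4 as exceptions. Over both zones the high minus low difference of Blk was -0.41 ± 0.16, that of Syk -0.45 ± 0.16, of Fyn -0.75 ± 0.24, of Lat2 -0.35 ± 0.10, of Vav2 -0.37 ± 0.13 and of Prkcb -0.43 ± 0.12, and each adjusted p was 0.999 in limma. These 6 were the genes with an unadjusted p under 0.05 (2.67% of all genes lower), none was so on the higher side (1.63%), and 29 of the 33 lay below 0 (49.7% of all genes did) with a median of -0.21. The 6 became 11 without DZ_low replicate 2, and 10 without DZ_high replicate 3 or LZ_low replicate 2. A fit of only the genes above the median gene gave 6 lower (3.86% of those genes) and 0 higher (2.12%). With the experiment code as a block 11 were lower (3.39% of all genes), and 4 in that model without LZ_high replicate 4. Fyn was at -0.48 without LZ_high replicate 4. Marker lists moved with affinity over both zones too. All 7 plasma cell markers were higher at high affinity, with a median of 0.26 and 4 at an unadjusted p under 0.05. All 13 neutrophil markers (median -0.50), 9 of 12 T cell markers (-0.30), 5 of 5 naive and marginal zone B cell markers (-0.25) and 7 of 7 B cell markers (-0.19) were lower. Blk, Cd79a and Cd79b in the last list are themselves among the 33 genes. The part of these lists in the result was not tested. No gene of the array passed (0%). Over the pairs of both zones, Pik3ap1 and Prkcb were lower at high affinity in 7 of 7 (0.898% of all genes). For Pik3ap1, however, the dark zone pair of experiment B differed by only -0.00.

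**Figure D4:**
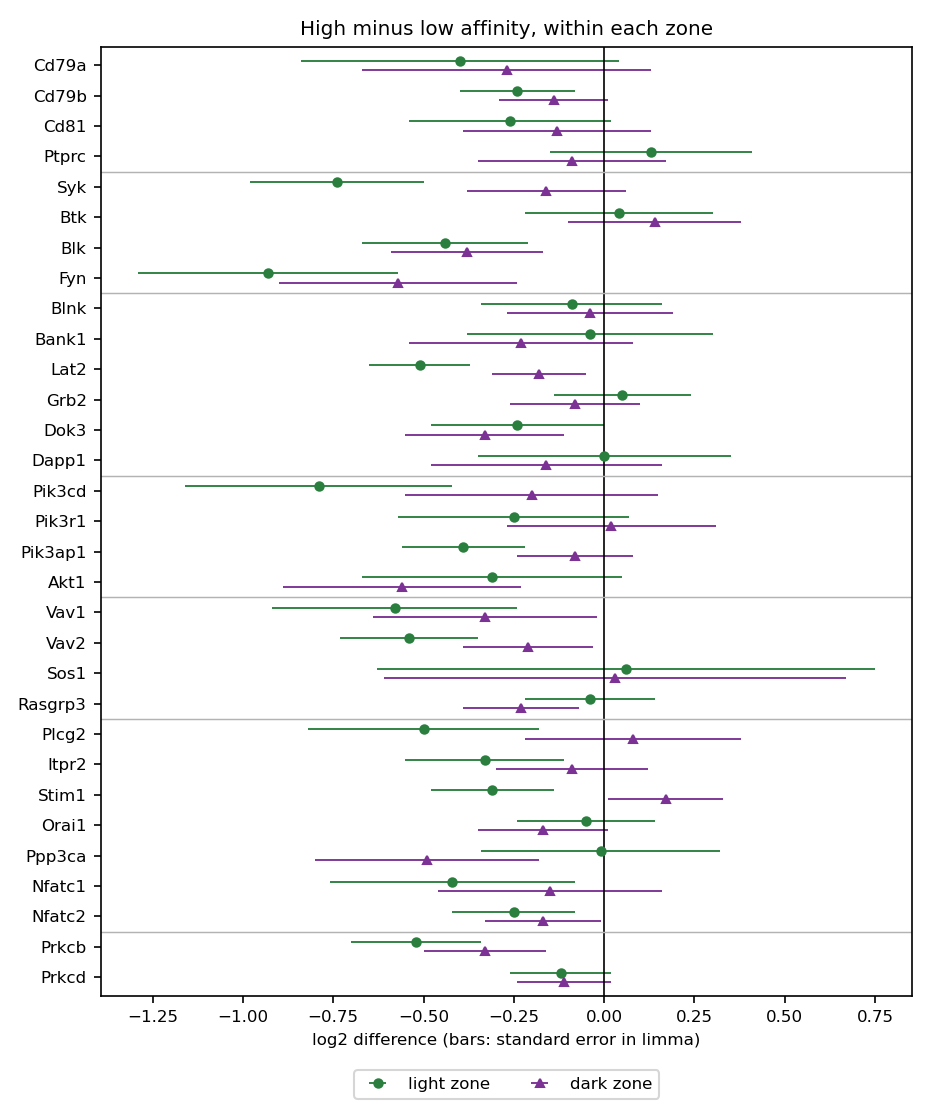
High minus low affinity log2 difference of 31 of the 33 genes in the light zone (circles) and the dark zone (triangles), with its limma standard error, by role. Of all 33 genes, of which 31 are drawn, 28 were below 0 in the light zone, with Fyn the lowest at -0.93, and 26 in the dark zone.

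Whether the zone difference depended on affinity was tested by the interaction, which no signalling gene and no other gene passed (0%), and none of the 33 had an unadjusted p under 0.05 (1.33% of all genes had). With the experiment code as a block Plcg2 had one (-0.47 ± 0.20), as did 1.91% of all genes. The median interaction was -0.10, with 22 below 0 (50.3% of all genes). A value below 0 means that the light minus dark difference, whatever its sign, was lower at high than at low affinity. It was -0.01 with 17 below 0 without DZ_low replicate 2, -0.02 without DZ_high replicate 3 and -0.18 without DZ_low replicate 3. In the blocked model it was 0.01 with 16 below 0 without LZ_high replicate 4, so the direction of the median rests on single arrays. Also below 0 were 12 of 13 neutrophil markers (median -1.0), 10 of 12 T cell markers (-0.41) and 10 of 13 macrophage and monocyte markers (-0.28), and their part in this value was not tested. The lowest p belonged to Stim1 (-0.48 ± 0.24, adjusted p = 1), followed by Syk (-0.58 ± 0.32). For Lat2 the interaction was -0.33 ± 0.20 and for Pik3ap1 -0.31 ± 0.23, so the zone differences seen at low affinity were not shown to differ from those at high affinity.

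**Figure D5:**
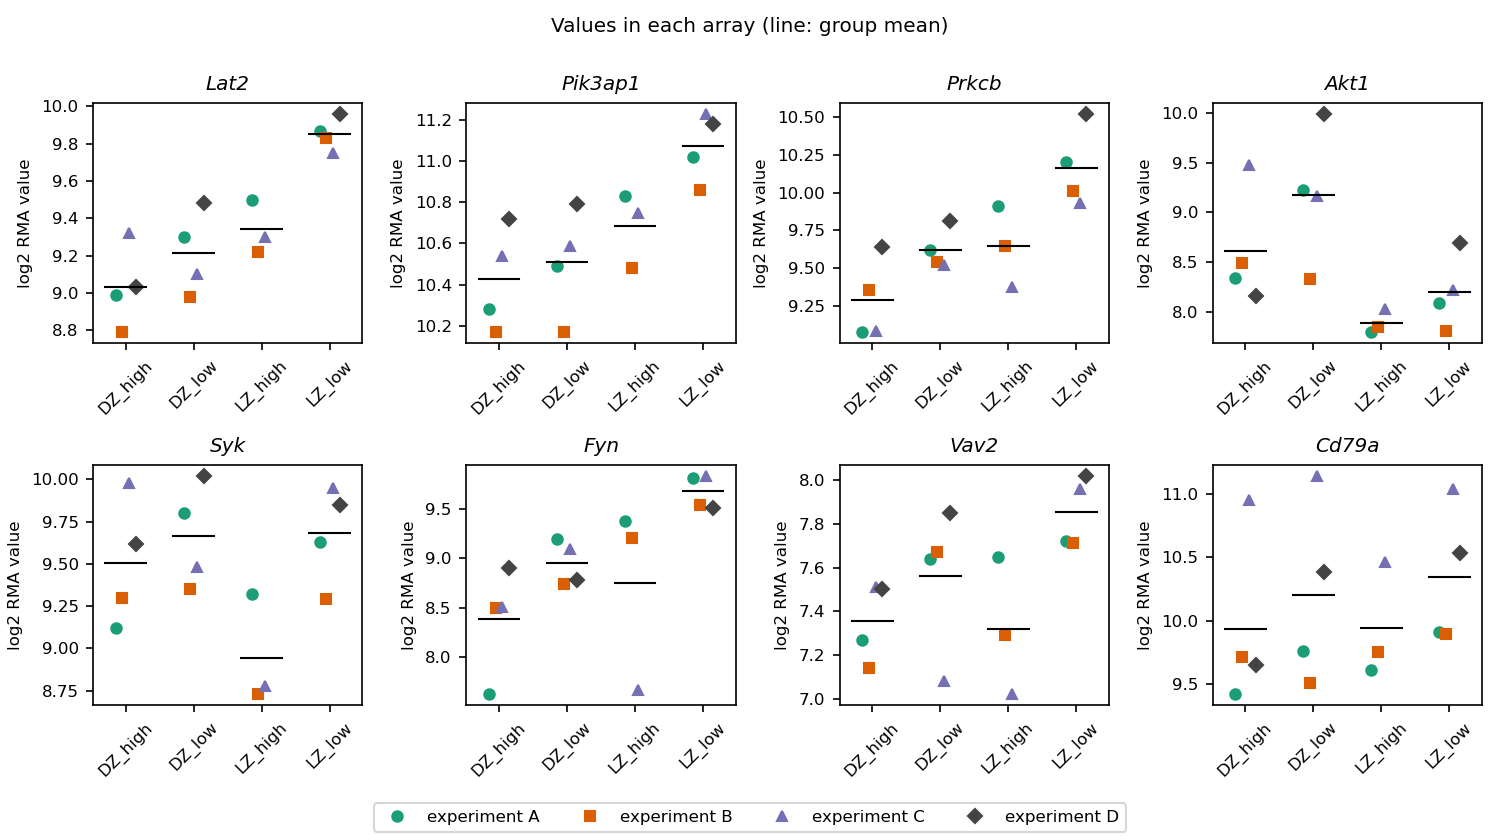
Log2 RMA values of 8 genes in each array, by group, with the experiment code as colour and shape and the group mean as a line; each panel has its own axis, which does not start at 0. The LZ_low arrays lie above all others for Lat2, Pik3ap1 and Prkcb, Akt1 is lowest in LZ_high (7.80 to 8.03), and the Cd79a arrays of experiment C are the highest of each group.

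Some of the spread followed the experiment code rather than the groups. In limma, with the groups in the model, 3 of the 33 differed by experiment code, against 3.43% of all genes: Cd79a (adjusted p = 0.0137), Plcg2 (0.0198) and Nfatc1 (0.0457). Cd79a measured 9.42, 9.71, 10.95 and 9.65 in DZ_high, 9.76, 9.51, 10.38 and 11.14 in DZ_low, 9.61, 9.75 and 10.46 in LZ_high, and 9.91, 9.89, 10.53 and 11.04 in LZ_low. The array of experiment C was the highest in every group, and the mean of Cd79a was 9.67 in A, 9.71 in B, 10.90 in C and 10.19 in D. Plcg2 means were 9.79, 9.76, 10.53 and 10.51 in A to D, and those of Nfatc1 7.69, 7.56, 8.39 and 8.30, so A and B were low and C and D high in both. With code B as written in each zone none of the 33 passed (0.125% of all genes).

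Of 63 other genes of the pathway listed for comparison, 51 were measured, and none passed in any of the 7 comparisons in limma. Between zones over both affinities 2 were higher at an unadjusted p under 0.05 (2.47% of all genes) and 1 lower (1.91%), with a median of 0.03. The 3 with the lowest p on the light zone side were Prkca, a further protein kinase C (0.68 ± 0.16, adjusted p = 0.152), Dock2 (0.32 ± 0.15) and Akt2 (0.63 ± 0.32), and on the dark zone side Plcg1, the phospholipase isoform used by T cells (-0.53 ± 0.16, adjusted p = 0.411), Rasgrp1 (-0.20 ± 0.11) and Ppp3cc (-0.28 ± 0.16). Akt2 and Akt1, which encode related kinases, thus lay on opposite sides of 0, as did Plcg1 and Plcg2, though of these 4 only Akt1 and Plcg1 had an unadjusted p under 0.05. Akt2, like Orai2 below, has 2 probe sets, and its values are those of the brighter on average only. At high affinity the genes named by the same rule were Prkca (0.77 ± 0.23), Gab1 (0.21 ± 0.15) and Akt2 (0.68 ± 0.47), and Plcg1 (-0.65 ± 0.23), Rac1 (-0.22 ± 0.11) and Rasgrp1 (-0.30 ± 0.16). At low affinity they were Pik3cg (0.43 ± 0.15), Prkca (0.59 ± 0.21) and Dock2 (0.42 ± 0.20), and Plcg1 (-0.42 ± 0.21), Ppp3cc (-0.31 ± 0.21) and Map3k7 (-0.34 ± 0.24).

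For affinity in the light zone, 34 of these 51 genes lay below 0 (50.1% of all genes did), with a median of -0.15, and 4 were lower at an unadjusted p under 0.05 (2.36% of all genes) and 0 higher (1.64%). Pik3cg, a catalytic subunit like Pik3cd, was at -0.58 ± 0.16, the ubiquitin ligase gene Cbl at -0.33 ± 0.13 and Ikbkg, a subunit of the kinase complex that frees NF-kappaB, at -0.34 ± 0.15. On the higher side the lowest p belonged to Ppp3cb (0.80 ± 0.51), Mapk8 (0.64 ± 0.42) and Nras (0.43 ± 0.34). In the dark zone the median was -0.01, with Pik3cb (0.26 ± 0.22), Ppp3cb (0.50 ± 0.48) and Vav3 (0.12 ± 0.14) on the higher side and Orai2 (-0.29 ± 0.14), Csk (-0.39 ± 0.26) and Mapk14 (-0.34 ± 0.24) on the lower. Over both zones Ppp3cb (0.65 ± 0.35), Pik3cb (0.23 ± 0.16) and Pik3ca (0.22 ± 0.19) were set against Orai2 (-0.29 ± 0.11), Cblb (-0.35 ± 0.15) and Pik3cg (-0.25 ± 0.11). For the interaction they were Gab1 (0.28 ± 0.20), Mapk8 (0.67 ± 0.57) and Nras (0.44 ± 0.46), and Pik3cg (-0.64 ± 0.22), Ikbkg (-0.44 ± 0.20) and Pik3r2 (-0.41 ± 0.24). Apart from Prkca and Plcg1 between zones over both affinities, the adjusted p of every gene named here was 0.986 or higher.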

How the data were processed

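RNA of 15 sorted samples was amplified and hybridised to 1 whole-transcript array each, per the labels' protocols. The authors deposited log2 values of 28853 probe sets made with RMA, and the submitters' processing notes name genome build mm8. The platform annotation gave 21789 probe sets 1 symbol, 1621 several and 5443 none. Only the first were used, and a gene with several (999 genes) was represented by its brightest on average, for 19938 genes in all. No gene was filtered out.

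Limma 3.58.1 in R 4.3.3 fitted 4 group means (11 residual degrees of freedom, 8 once the experiment code was a block), with Benjamini-Hochberg adjustment over all genes. The 34 genes, the 63 other pathway genes and the 9 marker lists were chosen with earlier results of these data known. Array values are printed for genes with an unadjusted p under 0.05 in a comparison and for others the text turns on. Where a role had no such gene, the one with the lowest p is named, and of the other pathway genes the 3 with the lowest p in each direction. Pik3cd, Cd79a and the genes named for non-overlap or for agreement of pairs were singled out after their values were seen.

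The experiment code comes from the sample descriptions and was read as a shared experiment. The deviations of arrays from their group means correlated at 0.288 on average over 21 pairs that share a code across groups (16 pairs above 0.1), and at -0.082 over 63 pairs that do not. Whole arrays correlated at 0.993 at most, and each was counted once.

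Alternatives changed the block, the arrays included, the centring, the filter on dim genes, the choice among probe sets, the variance model, the weights of arrays and the threshold. Tested on simulated data in which 200 of 19938 genes were changed, the fit gave the following. Of genes changed by 1 on the log2 scale, 84% were recovered in the zone comparison over both affinities. The affinity comparison recovered 65% among light zone and 71% among dark zone arrays, and the interaction 31%. The changed genes were drawn at random from all genes, and the noise was independent between arrays, with no shared experiment. The median SD within groups was 0.24 over all genes and 0.37 for the signalling genes, whose differences in the unblocked fit were all smaller than 1. These shares therefore do not measure how well differences of the signalling genes would be recovered. Promoter sequences came from RefSeq on GRCm38.p6. Figures were drawn with matplotlib 3.10.9. The values of 2 of the 33 genes enter the counts and medians and are not reported by name here.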

Additional observations from a re-analysis of the deposited data

Results flagged for a closer look

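In 6 of 93 sets of 4 arrays (31 genes in 3 groups), the highest or lowest array stood far from the other 3 by Dixon's test. Chance flags about 1 in 20 such sets, and 6.45% were flagged here. In LZ_low replicate 3, Btk was at 8.50 (nearest array 9.53) and Bank1 at 9.90 (nearest 11.17), each the lowest of its group. That array also had the highest neutrophil, T cell and macrophage marker means, and the part of these in these values was not tested. In DZ_high replicate 3, Cd79b was at 12.25 (nearest 11.96), Vav1 at 9.36 (nearest 8.55) and Orai1 at 6.30 (nearest 6.16), each the highest of its group. In DZ_high replicate 4, Itpr2 was at 9.41 (nearest 8.56), the highest of its group.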

How the results depend on the processing

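No signalling gene with an unadjusted p under 0.05 in a comparison changed the sign of its difference there under any alternative run, and leaving out any 1 array without a block gave 0 passing signalling genes in each of the 7 comparisons. Between zones over both affinities the number of the 33 that passed was 0 without a block. It was 3 with the experiment code as a replicate block (Lat2, Pik3ap1 and Prkcb), 3 with the title number as a block (Lat2, Pik3ap1 and Akt1), 1 with the code as a random block (Lat2, adjusted p = 0.0402) and 1 with array weights (Lat2, adjusted p = 0.0355). The title number and the code group the arrays alike, except that DZ_high replicates 3 and 4 change places, so these blocks are not independent alternatives. With the code as a block the number that passed was 0 to 5 when each array was left out in turn, and 3 when both arrays of low affinity from experiment D were left out (Bank1, Pik3ap1 and Akt1). Both of these, and the blocked model with centred arrays, were chosen after seeing the data. The count was 2 without DZ_high replicate 1, 2 without DZ_high replicate 3, 5 without DZ_high replicate 4, 3 without DZ_low replicate 3, 1 without DZ_low replicate 4 and 2 without LZ_high replicate 4. Leaving out LZ_low replicate 3 gave 1. The cause was not tested. At low affinity 1 passed with the title number as a block and 0 to 1 in the blocked fits that left out an array, where it was 1 without DZ_high replicate 3 (Lat2) and 1 without DZ_high replicate 4 (Pik3ap1). The replicate block changed no other count of passing signalling genes. Of the other pathway genes, 1 passed between zones with array weights and 1 in the blocked fits without DZ_high replicate 1 or replicate 4.

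The median of the 33 between zones at low affinity, 0.17, lay between 0.04 (without DZ_low replicate 2) and 0.26 (without LZ_low replicate 2). At high affinity it was 0.01, or 0.13 and 0.18 in the blocked fits without DZ_high replicate 3 and without LZ_high replicate 4. The median interaction, -0.10, lay between -0.18 (without DZ_low replicate 3) and -0.01 (without DZ_low replicate 2), and in the blocked fits between -0.25 (without DZ_high replicate 1) and 0.01 (without LZ_high replicate 4). The median for affinity in the light zone lay between -0.34 and -0.24 over the unblocked fits that left out 1 array, and between -0.31 and -0.14 over the blocked ones. Same title numbers gave a mean correlation of 0.227 over 21 pairs. Fitting only the groups compared gave values for the 4 comparisons of single groups. No detection calls were used, so no gene was called absent.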
